A study of Caenorhabditis elegans with 2 samples.

Results

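These results describe 379 places on the autosomes of Caenorhabditis elegans where tagged HMG-20 protein was recovered within 1000 bp of the start of protein-coding genes. At each place these genes lie on a single DNA strand. The places were taken from the deposited list of 59116 ranked regions, of which 46745 are autosomal. A region was kept if its score was 540 or more, which corresponds to an irreproducible discovery rate (IDR) of 0.05, if its summit lay from 1000 bp upstream to 200 bp downstream of the 5' end of protein-coding genes on 1 strand, and if it lay in no such window of a tRNA, snoRNA or snRNA gene. Of the 9412 autosomal regions with such a one-sided position, 379 had that score, or 4.03%, against 3.20% of all autosomal regions and 3.27% of the whole list. The score chose these peaks, so nothing is read from those shares. The other 9033 one-sided regions, below the score, serve as the comparison throughout, and the 149 autosomal peaks in divergent promoters, which have protein-coding 5' ends on both strands, are given where they help.

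The data are chromatin immunoprecipitation sequencing (ChIP-seq) with an antibody against GFP. The worms were of strain RW12240, in which a TY1, EGFP and 3xFLAG tag had been inserted by CRISPR at hmg-20 on chromosome I, and all carried the allele st12240. They were synchronised by L1 starvation after bleaching and taken as whole young adults at 64 hours, in 1 group of 2 biological replicates. Whole animals were used, so a strong signal in few cells and a weak one in many cannot be told apart, and no untagged worms were analysed here. Depth is unknown, since peak lists hold no read totals. Positions are on ce11, the same assembly as WBcel235.

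HMG-20 has a DNA-binding fold called the HMG box and is related to the mammalian HMG20 proteins, which work with the CoREST and LSD1 histone demethylase complex. A promoter is the stretch from which transcription of a gene starts. In C. elegans the 5' end of many messenger RNAs is cut off and replaced by a short spliced leader, so that the annotated 5' end of a gene is often the splice acceptor, which ends in AG, and transcription begins upstream of it. Neighbouring genes on 1 strand can also share a promoter as an operon.

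The sequences given here run 50 bp to either side of the summits of 8 of the strongest peaks whose windows overlap no annotated exon, written 5' to 3' along the strand of the gene, so that the gene lies to the right. They are shown because the letters CGCG, in capitals, were the 4-letter string that differed most between these peaks and the one-sided regions below the score. The letters GAGAGA, or their complement TCTCTC, are also in capitals. Positions are on ce11.
rpl-3 at chrIII:3867519-3867619, plus strand: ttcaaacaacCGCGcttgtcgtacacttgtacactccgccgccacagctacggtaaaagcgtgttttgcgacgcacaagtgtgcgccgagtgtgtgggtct
cnk-1 at chrIII:10270909-10271009, plus strand: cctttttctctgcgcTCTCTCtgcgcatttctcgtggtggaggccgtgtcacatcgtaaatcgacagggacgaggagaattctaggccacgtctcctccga
rpl-35 at chrIII:7854643-7854743, plus strand: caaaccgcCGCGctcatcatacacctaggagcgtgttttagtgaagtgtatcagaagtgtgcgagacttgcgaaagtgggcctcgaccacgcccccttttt
mog-4 at chrII:14561790-14561890, minus strand: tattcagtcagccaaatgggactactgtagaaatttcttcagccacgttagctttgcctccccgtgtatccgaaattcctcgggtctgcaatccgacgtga
cox-5A at chrIII:12905144-12905244, plus strand: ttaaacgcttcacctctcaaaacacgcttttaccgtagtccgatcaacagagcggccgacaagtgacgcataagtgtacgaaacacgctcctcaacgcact
eel-1 at chrIV:3050430-3050530, minus strand: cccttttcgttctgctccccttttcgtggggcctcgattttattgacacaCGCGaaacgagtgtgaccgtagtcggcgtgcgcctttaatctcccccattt
sec-61.G at chrV:10897325-10897425, minus strand: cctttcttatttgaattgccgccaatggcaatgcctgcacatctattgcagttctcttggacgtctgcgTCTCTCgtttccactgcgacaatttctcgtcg
eelo-2 at chrIV:17249847-17249947, plus strand: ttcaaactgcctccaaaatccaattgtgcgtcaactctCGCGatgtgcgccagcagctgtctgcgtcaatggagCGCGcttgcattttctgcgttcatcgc
Of these 8 windows, rpl-3, rpl-35, eel-1 and eelo-2 hold CGCG, cnk-1 and sec-61.G hold a GAGA repeat on one of the strands, and mog-4 and cox-5A hold neither in this stretch.

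Most summits stood upstream of the annotated gene start, the side on which the window is 1000 bp long against 200 bp downstream. The median summit lay at -243 bp, where negative is upstream, with quartiles of -439.5 and -64.5 bp, against a median of -391 bp and quartiles of -706 and -57 bp in the one-sided regions below the score. Summits from 100 to 400 bp upstream made up 162 of the 379, or 42.7% (95% exact interval 37.7 to 47.9), against 22% of the regions below the score. That range was chosen after the distances were seen. The fullest 100 bp step was the one from 300 to 200 bp upstream, with 59 summits or 15.6%, where the regions below the score were sparsest, with 6.78%. Farther than 500 bp upstream lay 22.2% of the peaks and 41.7% of the regions below the score.

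The window limits how many summits can lie inside the gene, since it ends 200 bp downstream of the 5' end. A summit was upstream of the 5' end in 313 of 379 peaks, or 82.6% (78.4 to 86.3), and downstream in 65, or 17.2%. Below the score 79.8% were upstream. The upstream side of the window is by far the longer, so nothing is read from either upstream share alone. Within 100 bp of the 5' end on either side the shares were close, at 19.3% of the peaks and 18.8% of the regions below the score. Peaks in divergent promoters stood nearer, with a median of -135 bp. Intervals cover counting error only, and no test of these differences was run, since the peaks were chosen by their score and regions are not replicates.

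The stronger peaks were more tightly placed. Among the 50 with the highest pooled signal, 48 were upstream and 29, or 58.0%, lay from 100 to 400 bp upstream. Among the 190 peaks at or above the median signal, 52.1% lay in that range and 15.3% beyond 500 bp. The 189 below it had 33.3% in that range and 29.1% beyond 500 bp.

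**Figure D1:**
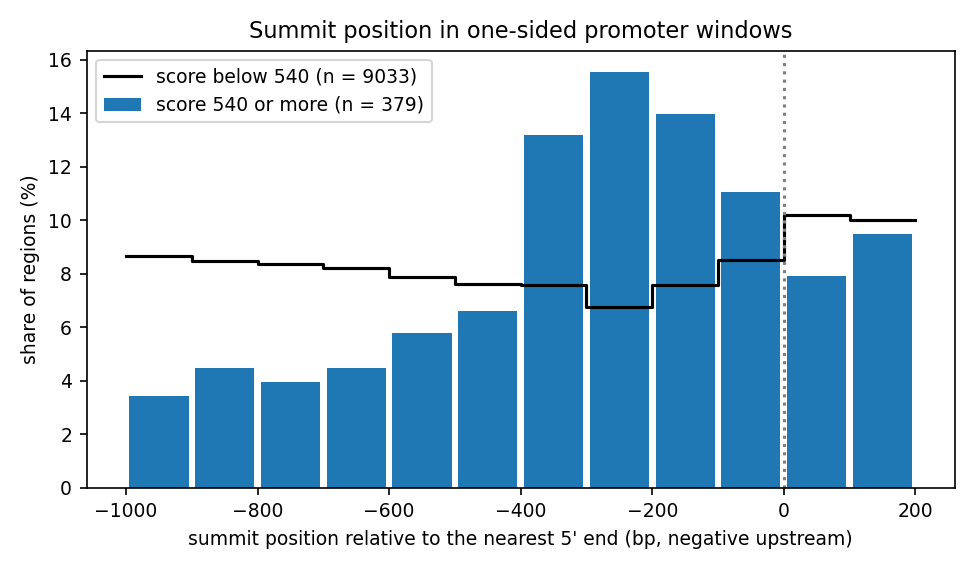
Position of the summit relative to the nearest protein-coding 5' end (x axis, bp, negative upstream) as a share of regions (y axis, %) in steps of 100 bp. Bars are the 379 one-sided promoter peaks and the line the 9033 one-sided regions below the score; the bars are highest from 400 to 100 bp upstream, where the line is near its lowest.

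Most summits were clear of annotated protein-coding gene bodies. Of the 379 summits, 263, or 69.4%, lay between protein-coding genes, 54 in an exon of the gene whose promoter window held them and 33 in an exon of another gene. The remaining 12 and 17 were in introns of that gene or of another. Below the score 46.96% lay between genes and 23.7% in an exon of another gene, against 8.71% of the peaks. A further annotated ncRNA gene had its own window over 40 of the summits, or 10.6%, against 6.68% below the score. Windows of piRNA genes held 9 peaks, or 2.37%, against 2.45%.

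The windows name 373 genes, which is 2.16% of the 17242 autosomal protein-coding genes. A single gene was named by 365 of the peaks, and 14 named 2 or more, up to 3. The nearest genes numbered 360, of which 18 had more than 1 peak. The genes were on the minus strand at 182 peaks and on the plus strand at the rest.

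Upstream neighbours showed what one-sided means here. For 234 of the 360 nearest genes, or 65.0%, the next protein-coding gene upstream was on the same strand, and 66.5% of the autosomal genes whose own 5' end lies in windows of 1 strand had such a neighbour. The gap to that same-strand neighbour had a median of 422 bp (quartiles 192 and 902.8) at the peaks, against 617 bp for genes of the regions below the score and 721.5 bp for all genes with one-sided starts. A same-strand neighbour within 500 bp was found for 137 of the 360 genes, or 38.1%, against 28.9% and 26.9%. Where the neighbour was on the other strand, the median gap was 2386.5 bp. Genes of the regions below the score had 1579 bp there, and all genes with one-sided starts 2452 bp. The nearest genes were also somewhat long, with a median of 2417.5 bp from end to end, against 1964 bp over all autosomal protein-coding genes.

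The annotated starts of the bound genes often looked like splice acceptors. The 2 bases before the 5' end were AG in 177 of the 360 nearest genes, or 49.2% (43.9 to 54.5), against 31.8% of the 6619 genes of the regions below the score and 27.7% of all 17242. The full string TTTCAG stood there in 24.4%, 13.8% and 12.3%. The 5' end was an ATG, where the annotation starts at the start codon or at another such triplet, in 13.9%, 21.8% and 24.7%. Peaks at genes with the AG were more narrowly placed, with quartiles of -360.2 and -130.2 bp and 53.8% from 100 to 400 bp upstream, than the other peaks, with quartiles of -524 and -34 bp and 32.5%. The medians were close, at -243.5 and -236 bp. These counts were made after the distances had been seen.

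Sequence around the summit often held paired CpG steps. Within 100 bp of the summit on either side, the string CGCG, which reads the same on both strands, was found at 204 of 379 peaks, or 53.8% (48.7 to 58.9), against 23.6% of the regions below the score and 19.9% of 17242 windows of the same length centred 250 bp upstream of every autosomal protein-coding 5' end. Peaks in divergent promoters had it at 66.4%. Of the 136 distinct 4-letter strings, counted on both strands, CGCG had the largest difference in share from the regions below the score, and GCGC, at 54.4% against 24.96%, came next. The string with the largest deficit was TATA, at 30.9% against 46.7%.

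The CGCG matches were concentrated at the summit itself. In the 50 bp on the upstream side of the summit 26.4% of the peaks had a match, and in the 50 bp on the downstream side 23.7%. In the 50 bp steps more than 100 bp from the summit the share ran from 3.69% to 9.23%. Below the score the share ran only from 4.64% to 7.86%, and it too was highest beside the summit.

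**Figure D2:**
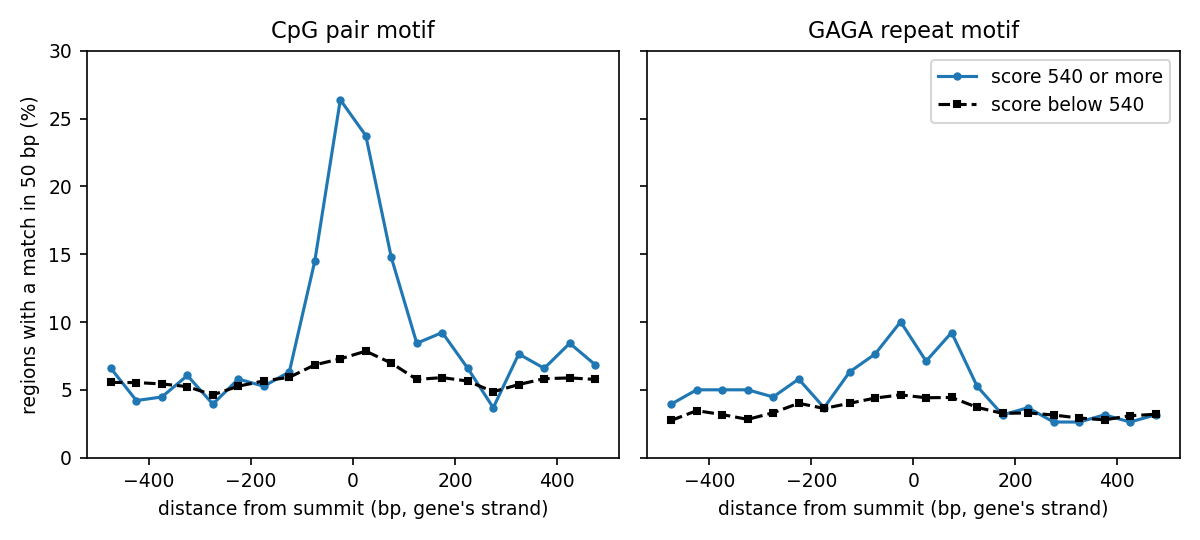
Share of regions with a match in each 50 bp step (y axis, %) by distance from the summit along the gene's strand (x axis, bp), for the CpG pair on the left and the GAGA repeat on the right. Points joined by a solid line are the 379 peaks and by a dashed line the 9033 one-sided regions below the score; the CpG pair rises to 26.4% beside the summit and the GAGA repeat to 10.03%.

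GC content differed with the score as well. The median over the same stretch was 41.8% at the peaks (quartiles 37.8 and 47.3), 39.3% below the score and 33.3% in the promoter windows. Within regions of 35 to 40% GC, CGCG was found at 63 of 114 peaks, or 55.3%, and at 19.1% of 2514 regions below the score. Between 40 and 45% GC the shares were 59.6% of 94 and 26.3% of 2243, and at 50% or more they were 63.3% of 60 and 46.4% of 674. Below 35% GC they were 30% of 40 and 13.6% of 2453. The gap was narrowest from 45 to 50% GC, with 49.3% of 71 peaks and 35.9% of 1149 regions. The part of GC content in the CGCG share within these ranges was not tested.

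Peaks with CGCG had the higher signal, a measure tied to the score. The 175 peaks without a match had a median pooled signal of 55.6, the 93 with 1 match 60.2, the 63 with 2 matches 75.5 and the 48 with 3 or more 76.7. In the first replicate column the medians were 30.1, 33.2, 43.4 and 42.1, and in the other column 28.2, 28.3, 34.1 and 35.1. The median GC content of those 4 sets stayed between 41.3% and 43.8%. With CGCG, 88.7% of the peaks were upstream of the 5' end, and without it 75.4%.

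Other short motifs were searched on both strands in the same windows. The GAGA repeat, GAGAGA, was found at 98 peaks, or 25.9%, against 15.4% below the score and 12.4% of promoter windows. A core like that of E2F sites, GCGCGAA, which contains CGCG, so that each match is also a CGCG match, stood at 27 peaks, or 7.12%, against 1.87% and 1.32%. The TATA box letters TATAAA were found at 12.1%, against 17.5% and 24.3%, and a core used by some HMG-box proteins, ACAAAG, at 7.65%, against 10.7% and 11.4%. The shares for a run of T (TTTTTT) were 49.3% and 50.4%, followed by 69.1% in promoter windows. For the E-box CACGTG they were 6.60%, 4.66% and 3.09%, for GATAAG 7.39%, 9.12% and 8.67%, for GGGCGG 7.12%, 5.75% and 4.17%, and for TTTCAG 26.4%, 33.9% and 33.6%.

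Longer strings were counted in the same way. Of 32896 distinct 8-letter strings, AAACGCGC, or its complement GCGCGTTT, differed most from the regions below the score, with 30 of 379 peaks, or 7.92% (5.40 to 11.1), against 81 of 9033, or 0.897%, and 1.06% of promoter windows. In divergent promoters 11 of 149 peaks held it, or 7.38%, a share close to that of the 379. Among the 379, it was found at 11 of the 50 strongest, or 22%, and at 19 of the other 329, or 5.78%. Next came GCGCCAGC, which does not contain CGCG, at 28 peaks or 7.39% against 0.476%. The string AAACGCGC was chosen by its share at these peaks, so its rank is a description. The string was sought only within 100 bp of the summit on either side. Of its 33 matches there, 29 lay within 50 bp of the summit. For 5 of the strongest of these peaks, chosen as before and with the match within 50 bp of the summit, the same stretch on ce11 is printed 5' to 3' along the gene's strand, with the match in capitals, to show where it sits.
C47E8.4 at chrV:14685711-14685811, minus strand: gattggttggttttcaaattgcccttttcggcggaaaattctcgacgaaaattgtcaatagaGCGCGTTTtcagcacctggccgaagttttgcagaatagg
W03F8.4 at chrIV:5183808-5183908, plus strand: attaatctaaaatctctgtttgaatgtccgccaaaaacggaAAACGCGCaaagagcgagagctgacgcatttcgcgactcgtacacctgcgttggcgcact
dnj-9 at chrII:4851797-4851897, plus strand: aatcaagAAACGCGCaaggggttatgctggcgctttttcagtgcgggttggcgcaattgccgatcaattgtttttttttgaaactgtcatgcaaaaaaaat
T07F10.3 at chrV:12870065-12870165, minus strand: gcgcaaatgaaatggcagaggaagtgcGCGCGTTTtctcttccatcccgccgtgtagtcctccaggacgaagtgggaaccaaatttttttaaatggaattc
tomm-20 at chrV:12343711-12343811, minus strand: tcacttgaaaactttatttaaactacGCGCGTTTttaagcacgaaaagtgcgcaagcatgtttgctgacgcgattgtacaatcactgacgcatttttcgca
The match stands on either strand of these genes and at different distances from the summit. The 30 peaks with it had a median pooled signal of 84.5 and the 349 others one of 59.9, and their median positions were -237 and -244 bp. Besides the 5 shown, its genes include eif-3.C, pcn-1, knl-3, sti-1, which encodes an HSP90 co-chaperone, and pfd-3, which encodes a prefoldin subunit.

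Signal here means the peak height that the authors' caller gave, on a scale the files do not state. Over the 379 peaks the pooled signal ran from 2.34 to 396, with a median of 62.6. In the first replicate column the values ran from 20.8 to 203 with a median of 33.6, and in the other from 19.4 to 201.01 with a median of 29.5. The order of the replicates in those columns is not named in the files. regions below the score had medians of 12.4 and 11.9. Since IDR ranks regions by their agreement between these same replicates, this is what the choice of peaks entails.

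At 25 of the 379 peaks, or 6.60%, one replicate had over 2 times the signal of the other, and the median ratio of the higher to the lower was 1.27. The first column was higher at 241 peaks, or 63.6%. The widest ratio, 2.79, was at Y62E10A.3 on chromosome IV, with signals of 24.3 and 67.9. It was followed by 2.54 at Y39E4B.6, with 52.6 and 20.7, and 2.46 at F28F8.7, with 48.2 and 19.6. Their pooled signals ran from 37.9 to 72.6, and the side that was higher differed among them.

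**Figure D3:**
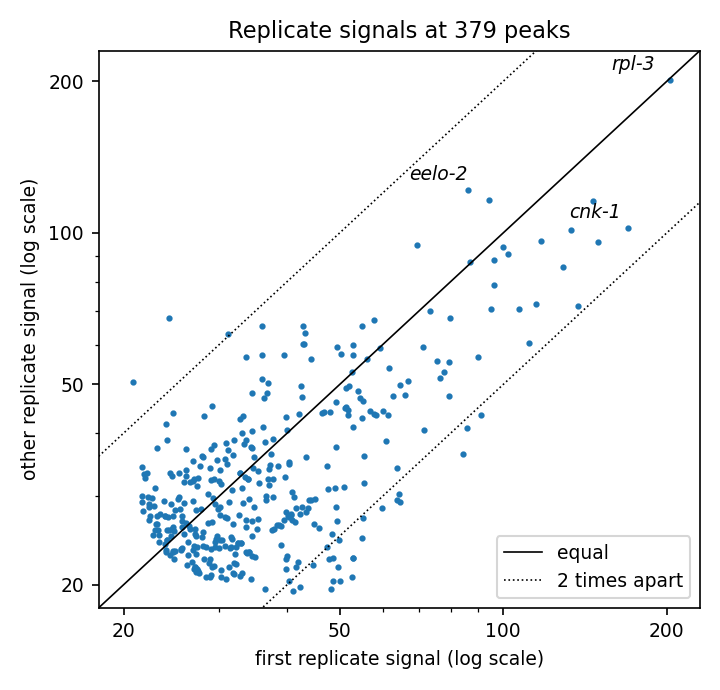
Signal of each of the 379 peaks in the first replicate column (x axis, log scale) and in the other (y axis, log scale), in the authors' units of peak height. The solid line marks equal values and the dotted lines values 2 times apart, outside which 25 peaks lie; rpl-3 lies on the solid line at the top.

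Thresholded lists called in each replicate alone held few of these peaks. A peak of replicate 1 overlapped 107 of the 379 by at least 1 bp, or 28.2%, a peak of replicate 2 overlapped 95, or 25.1%, and both did so at 67, or 17.7%. Neither overlapped 244, or 64.4%. Among all 1494 autosomal regions past the score the shares were 24.1%, 21.4%, 13.9% and 68.3%, so the one-sided peaks were near that background. Those lists hold no region that scores below 830, which corresponds to an IDR of 0.01, and 222 of the 379 peaks reach that score in the ranked list. The authors' conservative list holds 221 of the 379. The same rule applied to the ranked list of 1 replicate gave 197 one-sided peaks from replicate 1 and 177 from replicate 2.

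At the edge of the score, members and non-members were alike in signal. Just inside were spg-20 (score 540), with replicate signals of 23.9 and 23.3, F26F12.2 (541), with 28.4 and 20.8, and mrpl-49 (543), with 24.7 and 22.5. Just outside were gln-3 (538), with 30.9 and 20.1, T21D12.7 (538), with 25.1 and 22.1, and hmg-1.1 (536), with 21.2 and 28.9. At the other end 161 peaks had the top score of 1000.

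Width and repeated calls bear on how peaks are counted. The regions were 256 bp wide at 361 peaks, and the 18 narrower ones, down to 67 bp, were all among the 25 strongest. Both replicate signals were shared with another peak at 18 peaks, in 9 groups, so these were not measured apart. They include the peaks at gst-9 and npp-18. At 14 peaks the pooled signal was below both replicate signals. The lowest pooled signal, 2.34, was at gfat-1, where the replicates had 32.9 and 24.2.

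A large-subunit ribosomal protein gene, rpl-3 (WBGene00004414), had the strongest peak, on chromosome III from 3867484 to 3867668. Its replicate signals were 203 and 201.01, with the summit 285 bp upstream. The next, cnk-1 (WBGene00000564, chromosome III, 10270892 to 10271050), a scaffold gene of Ras signalling, had 169 and 102, 298 bp upstream. These replicates were much farther apart than those of rpl-3.

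At rpl-35 (WBGene00004449, chromosome III, 7854624 to 7854761), another large-subunit gene, the signals were 146 and 115.5, 441 bp upstream. The mog-4 peak (WBGene00003392, chromosome II, 14561765 to 14561934) had 149 and 96.0, 241 bp upstream of a gene for an RNA helicase of the splicing machinery. At cox-5A (WBGene00012553, chromosome III, 12905131 to 12905258), a subunit of cytochrome c oxidase, they were 133 and 101.3, 297 bp upstream. All 3 were higher in the first column, and their ranges overlap.

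The eel-1 peak (WBGene00022069, chromosome IV, 3050413 to 3050547), at the gene of a HECT ubiquitin ligase, had signals of 117 and 96.5, 376 bp upstream. The peak at sec-61.G (WBGene00001303, chromosome V, 10897318 to 10897435), the gamma subunit of the protein translocation channel, had 129 and 85.7 and also lies in the window of F32D8.13. At eelo-2 (WBGene00013997, chromosome IV, 17249846 to 17249969) the order was turned, with 86.0 in the first column and 122 in the other. The peak shared by ddp-1, a small chaperone of the mitochondrial inner membrane import machinery, and ttc-7 (chromosome III, 1859676 to 1859798) likewise had 94.2 and 115.99.

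The other 11 of the 20 strongest had pooled signals from 165 to 209. Of these, rpa-2 on chromosome I, a subunit of the single-stranded DNA binding protein RPA, had replicate signals of 137 and 71.7, and its summit stood 655 bp upstream, the farthest of the 20. The summit at ints-4, a subunit of the Integrator complex that processes snRNA ends, with 115 and 72.3, stood 36 bp downstream and was the 1 of the 20 inside its gene. The closest pair of values was at lin-9, a subunit of the DREAM repressor complex, with 86.9 and 87.7.

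The rest of the 20 include genes that act on RNA and on protein turnover. The mtcu-2 peak had 102 and 90.6, that of ntl-11, which belongs to the poly(A) shortening CCR4-NOT complex, 99.7 and 93.7, and the initiation factor gene eif-3.C 96.2 and 88.2. Signals were 112 and 60.4 at wwp-1, another HECT ubiquitin ligase gene. C47E8.4 had 107 and 70.5, C34C12.8 95.01 and 70.5, and Y39B6A.43 69.5 and 94.8. Among these genes, Y39B6A.43 was the 1 with the higher value in the other column.

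**Figure D4:**
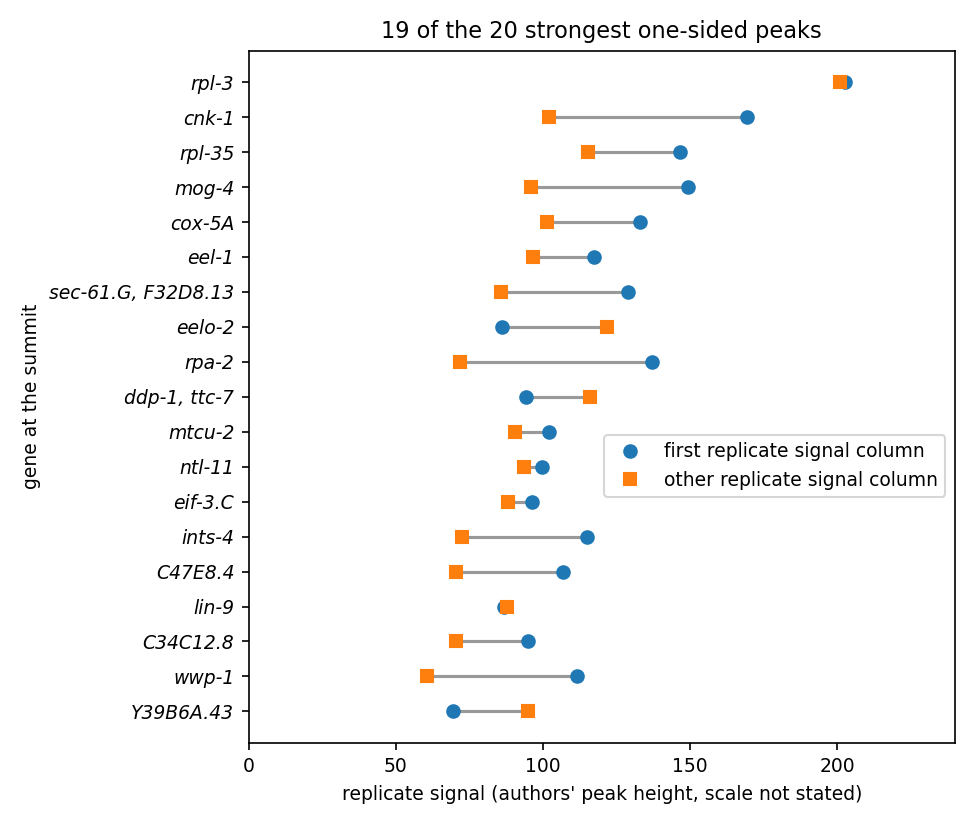
Signal in the first replicate column (circles) and in the other (squares) on the x axis, in the authors' units of peak height, for 19 of the 20 one-sided promoter peaks with the highest pooled signal, named by the genes whose window holds the summit (y axis). The lines join the replicates of a peak; rpl-3 stands apart at 203 and 201.01, and the other peaks lie between 60.4 and 169.

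Gene groups were counted from 22 lists, which were written with earlier results of these data known. A list's share is to be read against the 2.16% of all autosomal protein-coding genes with a one-sided peak, and no test was run on the lists. Peaks with divergent or small RNA windows are not in these counts, so a gene without a one-sided peak may still have another. The lists hold 3166 genes, or 18.4% of the autosomal ones, and 80 of the 373 bound genes, or 21.4%, were in at least 1 list. Counts of list peaks with CGCG are to be read against the 53.8% of all 379 peaks.

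Ribosomal protein genes had the highest share of any list. A one-sided peak was found at 13 of 80, or 16.3% (8.95 to 26.2). At 8 of the 13 the summit stood 250 to 320 bp upstream, a range chosen after the distances were seen, where 11.9% of the 379 peaks stood. These were rpl-3, rpl-14, rpl-23, rpl-29, rpl-41.2, rps-7, rps-11 and rps-24. The list also counts rpl-24.2, which is related to a ribosome assembly factor and had signals of 89.7 and 56.7, 139 bp upstream. At rps-28 the signals were 31.2 and 62.9, about 2 times apart, and that summit is also in the window of Y41D4B.4. CGCG was found at 6 of the 13 peaks. The ranked list of replicate 1 alone gave 8 such genes and that of replicate 2 alone 9, in lists with fewer peaks in all.

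Other genes of translation were counted in 3 further lists. Initiation and elongation factor genes had 3 of 39, or 7.69% (1.62 to 20.9). After eif-3.C came eif-3.B, with 41.6 and 21.7 and, like eif-3.C, CGCG, and eif-2alpha, a subunit of the factor that brings the initiator tRNA, with 30.2 and 21.4. Mitochondrial ribosomal proteins had 5 of 66, or 7.58% (2.51 to 16.8), with CGCG at 3 of the 5, and the strongest was mrpl-28, with 55.4 and 31.9, followed by mrpl-41 (23.9 and 41.8), mrps-35 (40.6 and 27.7) and mrpl-53 (24.2 and 27.3). None of the 32 aminoacyl-tRNA synthetase genes had a one-sided peak (upper exact limit 10.9%).

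Genes for RNA processing, transport and transcription made up 3 lists. Splicing factor and snRNP genes had 7 of 85, or 8.24%, led by mog-4, and 3 of the 7 peaks held CGCG. The cyclophilin genes cyn-10, with 42.7 and 65.4, and cyn-2, with 31.6 and 24.6, were counted with them although not every cyclophilin acts in splicing, and snrp-3 had 49.3 and 46.2. Replicate 1 alone gave 2 splicing genes and replicate 2 alone 4. Nuclear pore and transport genes had 5 of 43, or 11.6% (3.89 to 25.1), with CGCG at 3 of the 5. The nucleoporin genes npp-6, npp-8 and npp-18 had 61.5 and 53.9, 40.9 and 30.6, and 32.6 and 24.3. The importin gene imb-3 had 33.3 and 38.05. RNA polymerase, Mediator and general factor genes had 3 of 87, or 3.45%, which is close to the background, with CGCG at 2 of the 3: rpb-11, with 55.0 and 65.4, the RNA polymerase III gene rpc-2, with 42.1 and 43.7, and taf-11.3, with 39.5 and 26.9.

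Genes of DNA replication and the cell cycle were bound at 7 of 99, or 7.07%, and each of the 7 peaks held CGCG within 100 bp of its summit. Besides rpa-2, pcn-1, the sliding clamp of DNA polymerase, had signals of 73.4 and 69.9, and knl-3, a kinetochore gene, had 76.4 and 51.5, its summit lying in an exon of another gene. The gene of the centromeric histone, hcp-3, had 79.5 and 47.5 with the summit 663 bp upstream. The kinetochore gene hcp-1, the replicative helicase gene mcm-3 and the spindle checkpoint gene mdf-1 had lower pooled signals, from 49.4 to 59.8. At the 4 strongest of these genes the first column was the higher one. Each replicate's own ranked list gave 4 of the listed genes.

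Chromatin regulators were bound at 9 of 107, or 8.41% (3.92 to 15.4), and 7 of the 9 peaks held CGCG. After lin-9 came cbp-1, a histone acetyltransferase gene related to CBP and p300, with 57.7 and 67.0, its summit 899 bp upstream. The methyltransferase gene set-4 had 52.9 and 57.2. The hmg-20 gene itself had 34.6 and 34.1, 718 bp upstream, and ranked 129 of the 379 by pooled signal. The tag was inserted at this gene, and no untagged worms were analysed here, so whether the insertion bears on its peak was not tested. The remaining 5 were swsn-3, set-2, hda-10, wdr-5.3 and hmg-1.2. Of these, set-2, a histone methyltransferase gene, had 21.6 and 29.2, and swsn-3, a SWI/SNF gene, had 37.3 and 34.6. The list's count was 5 from replicate 1 alone and 3 from replicate 2 alone.

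Histone genes were bound at 6 of 78, or 7.69% (2.88 to 16.0), with CGCG at 2 of the 6. With a window of 500 bp upstream, 1 histone gene was counted. Of all 379 peaks, 22.2% stood farther than 500 bp upstream. At 5 of the 6 histone genes the summit stood over 600 bp upstream, a limit chosen after the distances were seen. The exception was his-37, an H4 gene, 107 bp upstream, with 64.3 and 30.3. The others were hcp-3, already named, his-63, with 26.8 and 35.2, his-58, with 28.8 and 22.5, his-68, with 22.8 and 31.2, and his-4. Many histone genes occur in near-identical copies. How reads that match several copies were placed is not given in the sources used here, so peaks at such copies are uncertain. Either replicate alone gave 3 histone genes.

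Metabolic and protein-quality lists held few bound genes. Each share was above the 2.16% of all genes, with an exact interval that reaches below it. Nuclear-encoded respiratory chain genes had 4 of 64, or 6.25%, with CGCG at 3 of the 4: cox-5A, cox-5B (42.4 and 49.7), cyc-1 (49.2 and 28.6) and nduf-11 (32.8 and 42.7). Chaperone genes had 3 of 62, or 4.84%, and all 3 peaks held CGCG: dnj-9, a J-domain gene, with 71.2 and 59.3, sti-1, with 31.3 and 29.2, and pfd-3, with 30.4 and 24.6. The proteasome list had 1 of 33, the lid deubiquitinase gene rpn-11 (36.6 and 29.4), and the vacuolar ATPase list 1 of 18, vha-13 (33.1 and 39.98).

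Germline and cytoskeletal lists also held few bound genes. Both shares were above the 2.16% of all genes, with exact intervals that reach below it. Germline and small RNA pathway genes had 4 of 78, or 5.13%, and all 4 peaks held CGCG: rde-12 (27.7 and 34.5), ego-1, which encodes an RNA-dependent RNA polymerase (31.9 and 38.7), the yolk receptor gene rme-2 (35.4 and 31.9) and the RNA helicase gene cgh-1 (25.3 and 29.8). Cytoskeletal genes had 3 of 66, or 4.55%, with CGCG at 2 of the 3. The alpha-tubulin gene tba-2 had 52.7 and 52.9, the actin gene act-1 24.0 and 25.7, and the muscle myosin gene myo-3 22.9 and 25.7. Actin and tubulin genes also have close copies.

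Few genes were found in the lists of tissue-specific or environmental response genes. Chemoreceptor genes had 3 of 1143, or 0.262% (0.0542 to 0.765): srbc-58 (26.9 and 29.4), srh-36 (26.6 and 25.8) and srbc-38 (29.5 and 24.3). Single genes were found among 246 nuclear hormone receptors (nhr-49, 35.3 and 25.8), 322 C-type lectin and innate immunity genes (clec-123, 26.2 and 24.3), 175 detoxification genes (gst-9, 23.9 and 27.4) and 106 neuropeptide genes (nlp-36, 31.8 and 21.1). The upper exact limits were 1.72% for the C-type lectin list, 2.24% for the receptors, 3.14% for detoxification and 5.14% for neuropeptides, so that the last 3 reach the 2.16% of all genes. None of the 150 cuticle collagen genes had a one-sided peak (upper exact limit 2.43%). The strongest of these 7 peaks, at nhr-49, had a pooled signal of 69.2, near the median of all the peaks.

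**Figure D5:**
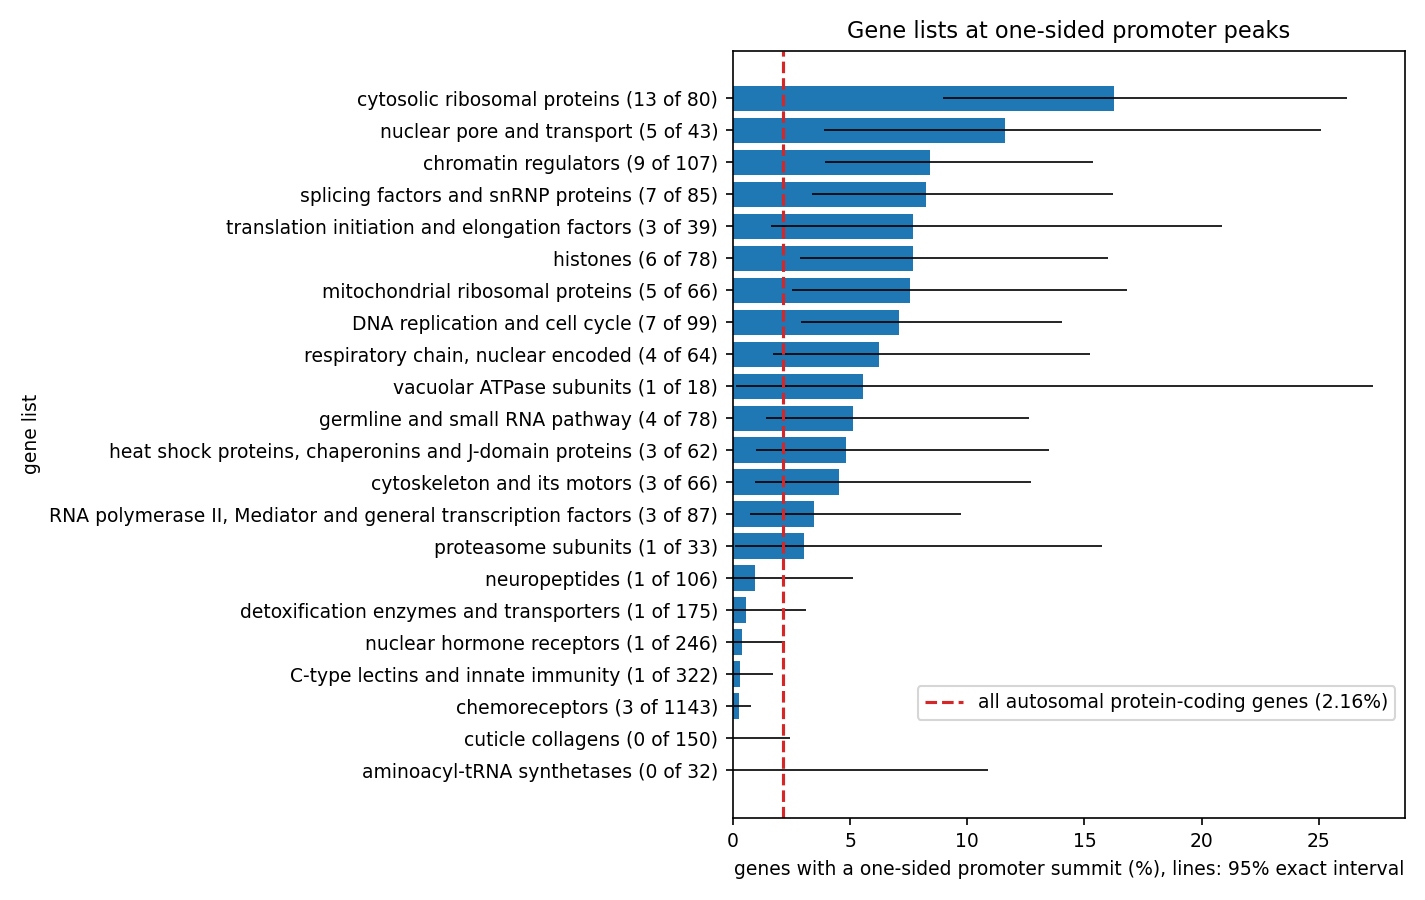
Share of the autosomal protein-coding genes of each list (y axis, with counts) that had a one-sided promoter summit (x axis, %), with 95% exact intervals as lines. The dashed line marks the 2.16% of all autosomal protein-coding genes; ribosomal protein genes reach 16.3% and chemoreceptor genes 0.262%.

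The peaks were spread over the 5 autosomes, with 82 on I, 75 on II, 71 on III, 70 on IV and 81 on V. As a share of all one-sided regions on the same chromosome this ran from 3.03% on V to 5.43% on I. The central 50% of the chromosomes by length held 240 peaks, or 63.3%, against 54.4% of the regions below the score and 55.7% of all autosomal protein-coding 5' ends. On V the shares were 72.8% of peaks and 50.4% of regions below the score, and on IV 54.3% and 58.1%, so the order was turned on that chromosome.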

How the data were processed

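HMG-20 ChIP-seq peak lists of 2 biological replicates were used, all on ce11 per the deposited file descriptions. The authors ranked regions with IDR, within each replicate and between both. Which aligner and peak caller made the lists is not stated in the labels. The deposited score is 125 times the negative log2 of the IDR, with a top of 1000. The deposited signal is the authors' peak height, and another deposited column holds the −log10 of the IDR. Depth, and with it the precision of a signal, is unknown. The control library was not analysed here.

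For the values given here, 1 annotated 5' end per gene came from Ensembl release 115 (WBcel235), and sequence from the RefSeq copy of that assembly. Each summit was assigned every 5' end whose window held it, and the nearest gave the distance. A shared base pair (1 bp) counted as overlap between lists. Shares have 95% exact (Clopper-Pearson) intervals. No hypothesis test was run, because there is 1 group and the score chose the regions. The assignment and distance step was tested on simulated data and recovered 1000 of 1000 regions. Named genes are the 20 strongest peaks, up to 4 per list, those at the score's edge, the 3 with the widest replicate ratio, and hmg-20; 1 of the 20 is not reported here. Other genes were named after their values were seen: further list members and genes with the 8-letter string. Members, lists and motifs were chosen with earlier results of these data known. Computation used matplotlib 3.10.9, pandas 2.3.3, SciPy 1.17.1, NumPy 2.4.6 and Python 3.11.15.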

Additional observations from a re-analysis of the deposited data

How the results depend on the processing

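Among values recomputed under other settings for the main results, 93 moved by less than the counting interval or spread used to judge them. The other 32 moved by more. At a score of 830 or more, 222 peaks remained, 87.8% upstream, 51.8% from 100 to 400 bp upstream, with a median pooled signal of 74.4, a peak in each replicate's own list at 30.2% and CGCG at 61.7%. In the conservative list these were 221, 87.8%, 52.0%, 74.5, 30.3% and 62.0%. From the ranked list of 1 replicate alone, without replicate 1 or without replicate 2, there were 177 to 197 peaks, 79.1% to 87.3% upstream, 42.9% to 48.7% from 100 to 400 bp upstream, with a median signal of 40.5 to 44.8, a peak in each list at 34.0% to 39.0% and CGCG at 51.4% to 62.9%. A window of 500 bp upstream gave a median of -171.5 bp, 33.8% within 200 bp upstream, 54.8% from 100 to 400 bp and a signal of 64.7, over 334 peaks, as far summits left and others entered. A window of 0 bp downstream gave -311.5 bp, 99.7% upstream, 50.3% from 100 to 400 bp and 59.8% of genes with a same-strand neighbour. Over 50 bp to either side of the summit the median GC content was 46.5%, against 40.6% below the score, and over 200 bp it was 38.4% against 37.9%, so the GC difference nearly went in the wider stretch. CGCG over 200 bp was at 64.4% against 37.8%. With every annotated transcript end the rule gave 422 peaks with a median of -235.5 bp, and 367 of the 379 stayed on 1 strand. The range of 100 to 400 bp and the setting without low pooled signals were added after seeing the data. The cause of these shifts was otherwise not tested. No paired analysis was possible because there is 1 group.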
